A study of Mus musculus with 23 samples.

Results

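10 genes, listed as scavenger receptors or marks of long-resident macrophages of the brain borders, were followed across 5 groups of sorted mouse brain macrophages. The genes were Cd163, Timd4, Colec12, Stab1, Msr1, Marco, Lyve1, Folr2, F13a1 and Cd5l. They were picked by symbol from a count table of 33280 genes, and all 10 were found. The animals were Ccr2creERT2/+ R26tdT/tdT mice of both sexes, in which tamoxifen switches on the red protein tdTomato (tdT) in cells that use the monocyte gene Ccr2, and descendants keep the mark. They received the CSF-1 receptor inhibitor BLZ945 by gavage (200 mg/kg on 7 days), which depletes brain macrophages, or vehicle (CTL). All of them, controls included, then received tamoxifen (2 mg per injection) and, 8 weeks after gavage, a stroke caused by thrombin in the middle cerebral artery, and brains were taken for sorting on day 1 after it. The choroid plexus was taken out before sorting, and sorted cells were negative for Ly6C, Ly6G and CD11c. Sorting gave microglia (MG), the macrophages of the brain tissue itself, and sdCAMs (subdural macrophages associated with the CNS), which bear CD206 and are the macrophages of the leptomeninges and perivascular spaces. There were 5 libraries each of the groups MG CTL, MG BLZ945, tdT- CTL (sdCAMs of vehicle mice) and tdT- BLZ945 (unmarked sdCAMs of BLZ945 mice), and 3 of tdT+ BLZ945 (marked sdCAMs).

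Several features limit these groups. No group lacked the stroke, so no value below measures a response to stroke. The mark reports Ccr2 use around the tamoxifen injections and says nothing of cells that entered at other times. By the labels, each CTL library held 1 animal, whereas the BLZ945 libraries pooled 2 animals, apart from those named F2, which held 1. The study describes every BLZ945 replicate as a pool of 2 mice. An animal number in the labels of F2 also occurred in the pool M1 of the BLZ945 mice, and whether they share an animal was not settled. In sorted bulk libraries, fewer cells expressing a gene and less RNA per cell cannot be told apart.

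Macrophages clear debris through surface receptors with broad and overlapping ligands. Class A scavenger receptors (Msr1, Marco, Colec12) bind modified lipoproteins and microbial surfaces, stabilin-1 (Stab1) takes up extracellular matrix and hormone cargo, CD163 takes up haemoglobin bound to haptoglobin, and TIM-4 (Timd4) recognizes phosphatidylserine on dying cells. LYVE1 binds hyaluronan, Folr2 encodes the folate receptor beta, F13a1 encodes the subunit of clotting factor XIII that cross-links fibrin, and Cd5l encodes a secreted protein of tissue macrophages. Several of these genes are widely used as marks of long-resident macrophages around vessels and in the meninges. F13a1 is also a monocyte gene, and Lyve1, Stab1 and Colec12 are also genes of endothelial or stromal cells.

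Total counts per library lay between 9433960 and 13276081. Taken as the smallest level told from 0, 3 counts equalled 0.226 to 0.318 CPM by library totals alone. CPM is the count scaled to a common library size, and the CPM of genes below also used a scaling factor per library. The sort was checked on markers: the summed CPM of 5 sdCAM genes ranged from 9924 to 14580 over the sdCAM libraries and from 113 to 389 over the MG libraries, and the reporter transcript Gt(ROSA)26Sor lay between 29.6 and 42.2 CPM in the tdT+ libraries and between 4.66 and 8.8 CPM in tdT- BLZ945. Some libraries stood apart in markers of other cell types. The summed CPM of 8 blood monocyte markers was 257.2 in tdT- BLZ945 F1, against 11.7 to 102 in the other sdCAM libraries, and over the tdT- BLZ945 group Ccr2 reached 121 CPM and Plac8 78.25 CPM, whereas Ly6c2 stayed at or below 8.79 CPM. The same library had the highest sum of neutrophil markers, 74.2 CPM, all of it Retnlg. The 3 choroid plexus epithelium markers summed to 1715 CPM in tdT+ BLZ945 F3 and to 546 CPM in MG BLZ945 F3 and 152 CPM in tdT- BLZ945 F3, libraries of the same pool. The 5 dendritic cell markers summed to between 220 and 780 CPM in tdT- CTL and to between 31.2 and 200 CPM in tdT- BLZ945 libraries, without overlap. Nearly all of that difference was Cd209a, a lectin gene (441 ± 197 and 86.5 ± 51.1 CPM, SD, n = 5 each), while Flt3 (1.4 ± 1.93 and 5.16 ± 5.29 CPM) had the higher mean in tdT- BLZ945. The part of these markers in the results below was not tested, except that each library was left out in turn.

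Together the 10 genes took 0.976% ± 0.116 of all counts in tdT- CTL sdCAMs and 0.94% ± 0.16 in tdT- BLZ945 (SD, n = 5 each). In tdT+ BLZ945 sdCAMs the share was 0.615% ± 0.0686 (SD, n = 3), and the highest tdT+ library (0.693%) lay just below the lowest tdT- BLZ945 library (0.698%). In MG the share was 0.048% ± 0.0144 in CTL and 0.0428% ± 0.00832 in BLZ945 mice (SD, n = 5 each).

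**Figure D1:**
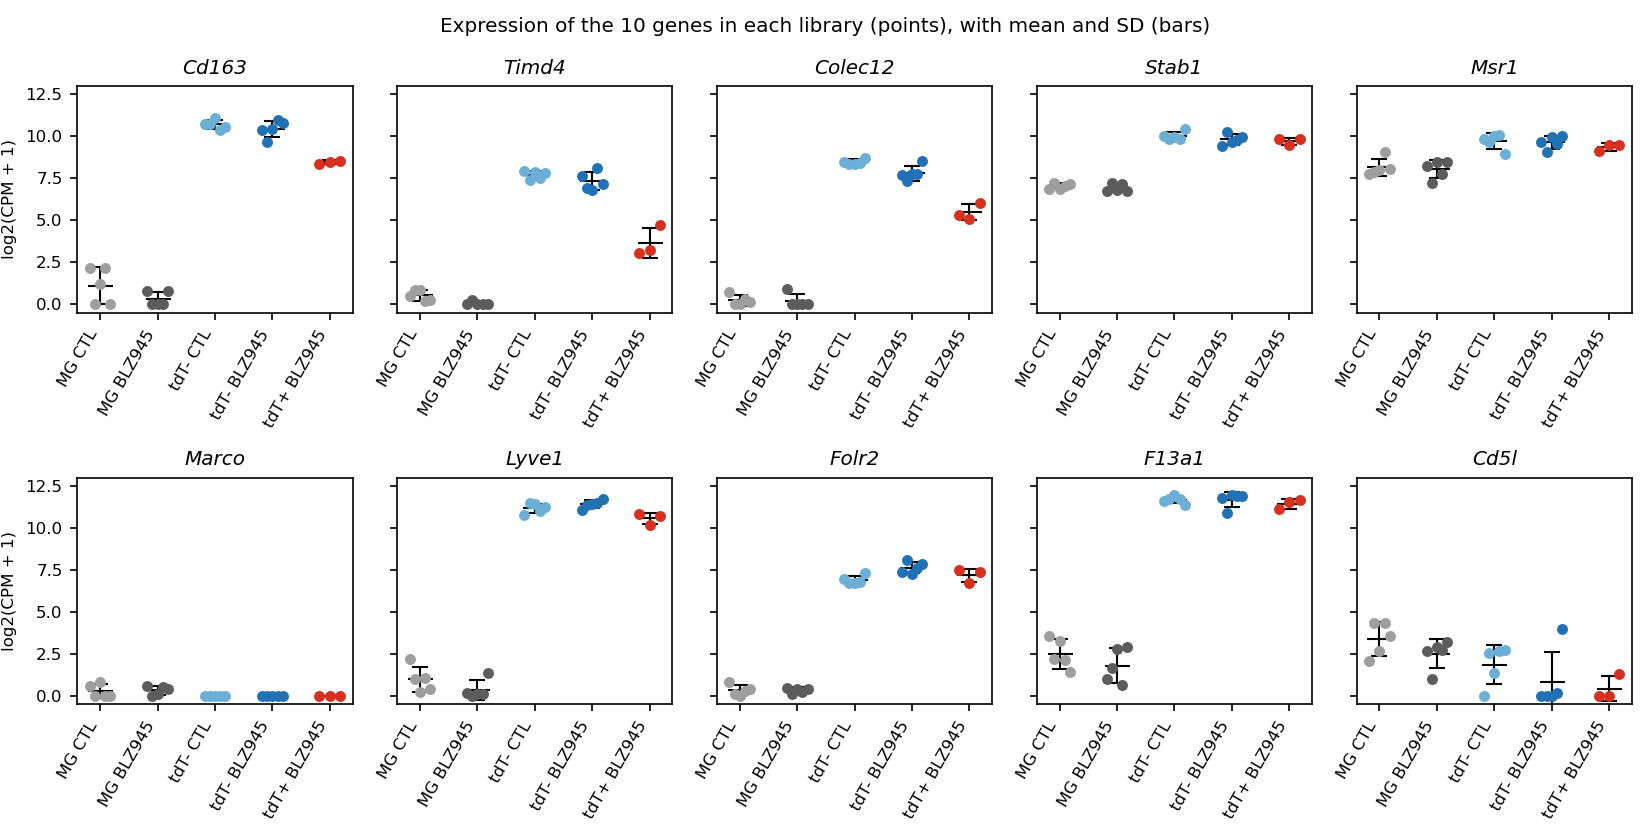
Level of each of the 10 genes as log2(CPM + 1) in every library (points), by group, with the group mean and SD (bars). Cd163, Timd4 and Colec12 sit lower in the 3 tdT+ libraries than in all 10 tdT- libraries, Stab1 and Msr1 are also present in MG, and Marco is at 0 in all 13 sdCAM libraries.

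Levels of different genes were compared per kilobase of exon. In tdT- CTL sdCAMs Lyve1 was the highest at 803 ± 147 CPM per kb (SD, n = 5 for all values of this group), followed by F13a1 at 487 ± 70.9 and Cd163 at 311 ± 61.1. These first 3 were each separated by more than their SDs. Msr1 (137 ± 37.1), Stab1 (102 ± 18.5), Timd4 (96.7 ± 14.3) and Folr2 (77.6 ± 14.3) formed a middle range in which neighbours lay within their SDs, and Colec12 followed at 40.7 ± 4.72 CPM per kb. Cd5l (1.7 ± 1.24) and Marco (0) were at the bottom. In tdT+ BLZ945 sdCAMs Lyve1 (526 ± 115 CPM per kb, SD, n = 3 for all values of this group) and F13a1 (416 ± 81.2) still led, within their SDs of each other. Cd163 stood sixth at 64.6 ± 5.02, and Timd4 (6.22 ± 4.53) and Colec12 (5.2 ± 1.89) were close to each other at the lower end. In MG CTL the highest were Msr1 at 47.4 ± 20.4, Stab1 at 12.6 ± 1.55 and Cd5l at 5.67 ± 3.7 CPM per kb (SD, n = 5), and no remaining member had a mean above 0.824 CPM per kb.

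**Figure D2:**
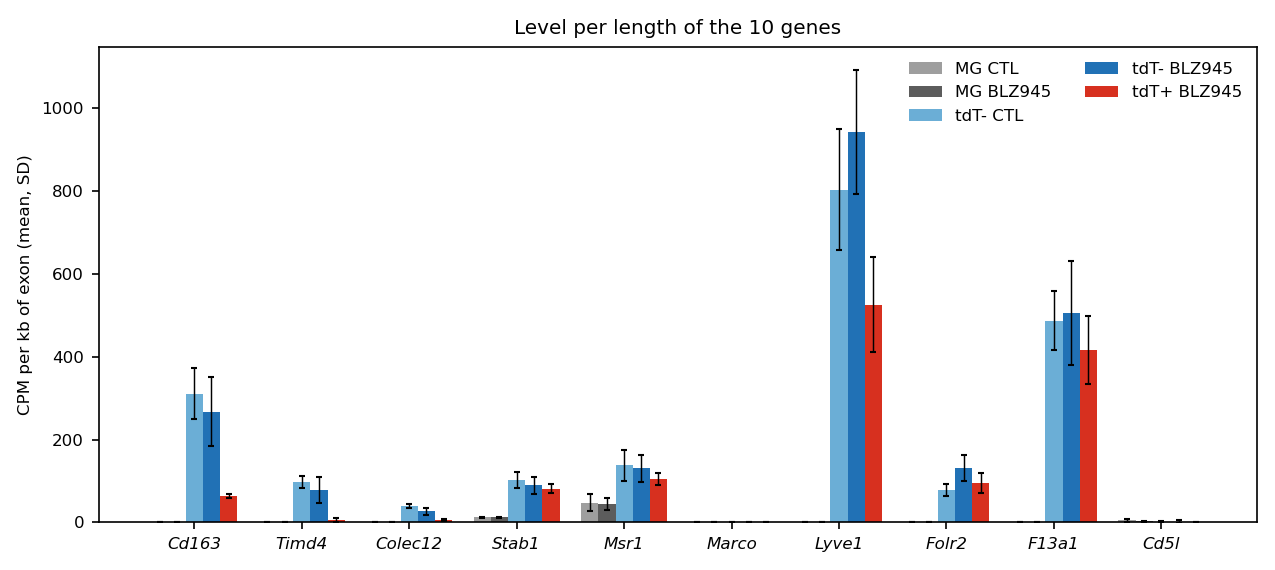
Mean level per kilobase of exon (bars, CPM per kb, linear axis from 0) with SD for the 5 groups. Lyve1 and F13a1 are the highest of the 10 genes in every sdCAM group, while Msr1 and Stab1 are the highest in MG, at 47.4 and 12.6 CPM per kb in MG CTL.

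The first question was whether sdCAMs and MG differ in these genes. In CTL mice, 8 of the 10 genes were called higher in tdT- sdCAMs (quasi-likelihood test of edgeR, Benjamini-Hochberg adjustment over all genes tested, adjusted p under 0.05), Cd5l was tested and not called, and Marco was too low to be tested. Of all 12697 genes tested, 15.3% were called higher and 10.3% lower. Most of the members were known sdCAM genes when they were picked. Cd163, Timd4, Folr2, Lyve1 and Colec12 passed the filter on low counts only through the sdCAM libraries. The count of members called therefore describes the populations and is no independent evidence. In BLZ945 mice the same 8 genes were higher in tdT- sdCAMs (18.3% of all genes called higher, 14.1% lower) and in tdT+ sdCAMs (14.6% higher, 10.6% lower). The tdT- and tdT+ comparisons in BLZ945 mice share the same 5 MG libraries.

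In MG, 6 members lay at a small fraction of their sdCAM level, with F13a1 the highest of them (5.55 CPM in MG CTL). Lyve1, the hyaluronan receptor, was 2344 CPM in tdT- CTL sdCAMs and 1.22 CPM in MG CTL, 0.052% of the sdCAM mean. Cd163, the haemoglobin receptor, was at 0.0974% of the sdCAM mean in MG CTL, F13a1 at 0.169%, Timd4 at 0.225%, Folr2 at 0.239% and Colec12 at 0.0563%, the last from 8 counts in MG CTL M1 and 0 to 3 in each other library. For Mrc1, the CD206 gene on which the cells were sorted, the same value was 0.435%. The fitted log2 fold changes of these 6 members in CTL mice ranged from 8.65 (Folr2, SE 0.39, edgeR adjusted p = 3.26e-13) to 10.90 (Lyve1, SE 0.60, edgeR adjusted p = 7.07e-12). Without MG CTL M1 they were 9.38 for Folr2, 11.78 for Lyve1 and 11.86 for Colec12 (10.70 with it). In CTL mice no sdCAM library overlapped with an MG library for these genes. In MG BLZ945, Timd4 had 2 counts in all 5 libraries together, against 8259 in the tdT- and 409 in the tdT+ libraries of BLZ945 mice. Its share of counts was 4325 times that of MG in tdT- cells (95% exact interval 1197 to 35720) and 350 times in tdT+ cells (96.3 to 2901), intervals that cover counting error only. Both MG counts came from MG BLZ945 F2, and 248 of the 409 tdT+ counts from M2. The fitted log2 difference from MG moved from 11.84 to 13.88 in tdT- cells without MG BLZ945 F2, and in tdT+ cells from 8.19 to 10.22 without that library and to 7.40 without tdT+ BLZ945 M2.

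Stab1 and Msr1, by contrast, were MG genes as well. Stab1 was between 113 and 150 CPM in MG CTL and between 905 and 1372 CPM in tdT- CTL sdCAMs, a log2 difference of 3.02 (SE 0.17, edgeR adjusted p = 8.22e-12), and MG held 12.4% of the sdCAM mean. Msr1 measured 216, 235, 254, 530 and 269 CPM in the MG CTL libraries and 921, 821, 1043, 1080 and 493 CPM in tdT- CTL. It was higher in sdCAMs by 1.54 on the log2 scale (SE 0.28, edgeR adjusted p = 0.000195), although the highest MG library exceeded the lowest sdCAM library. In tdT+ BLZ945 sdCAMs, the difference from MG BLZ945 was 2.77 for Stab1 (SE 0.18, edgeR adjusted p = 1.63e-11) and 1.26 for Msr1 (SE 0.30, edgeR adjusted p = 0.00257), with no overlap.

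Cd5l and Marco did not follow the other members. Cd5l was detected in every MG library, at 3.16, 19.6, 5.25, 18.8 and 11 CPM in MG CTL and 5.22, 1.01, 6.4, 5.67 and 8.37 CPM in MG BLZ945. In sdCAMs it was 0, 4.8, 1.55, 5.34 and 5.63 CPM in tdT- CTL, while 3 of the 5 tdT- BLZ945 libraries and 2 of the 3 tdT+ libraries had no count. A single tdT- BLZ945 library, M2, held 135 counts (15 CPM), and the tdT+ library of the same pool held the 14 counts (1.4 CPM) of its group. The difference between tdT- and MG BLZ945 was -0.81 on the log2 scale (SE 1.27, edgeR adjusted p = 0.664), and without tdT- BLZ945 M2 it was -7.21 (edgeR adjusted p = 0.000273), so that 1 library decided the call. With the animal or pool as a replicate block it was -5.01 (edgeR adjusted p = 0.0243), and for tdT+ against MG BLZ945 the block gave -7.67 (edgeR adjusted p = 0.0101) in place of -3.49 (edgeR adjusted p = 0.178). Leaving out 1 library moved the -3.49 to between -8.90 and -2.91 (lowest edgeR adjusted p = 0.0581). Over all alternatives the adjusted p for tdT- against MG BLZ945 ranged from 0.000273 to 0.801. Marco, a class A scavenger receptor of other tissue macrophages, had 0 counts in all 13 sdCAM libraries and 0 to 9 counts in MG libraries. In sdCAMs this allows at most 0.226 to 0.318 CPM per library, by library totals alone.

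The second question was whether the tdT- sdCAMs of BLZ945 mice still differed from those of CTL mice 8 weeks after depletion. None of the 9 members tested was called, and neither was any of the 13076 genes tested (0%), with 697 genes at an unadjusted p under 0.05 and 72 genes called by DESeq2. The median log2 fold change of the 9 members was -0.17, against -0.0012 over all genes tested, and 3 were positive and 6 negative. Cd163 was 1697 ± 334 CPM in CTL and 1457 ± 455 CPM in BLZ945 mice (SD, n = 5 each), a log2 difference of -0.21 with a 95% interval from -0.65 to 0.23. For Timd4 the difference was -0.31 (interval -0.97 to 0.35), for Stab1 -0.19 (-0.54 to 0.16), for F13a1 0.06 (-0.34 to 0.47) and for Lyve1 0.24 (-0.11 to 0.59). Falls as large as those of Cd163 in tdT+ cells, given below, lie outside these intervals.

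Folr2 and Colec12 had the smallest p-values of the 9 in this comparison. Folr2, which encodes the folate receptor beta, measured 125, 105, 103, 110 and 157 CPM in tdT- CTL and 164, 273.7, 153, 195 and 228 CPM in tdT- BLZ945 sdCAMs. The groups overlapped by 1 library on each side, and the log2 difference was 0.77 (SE 0.19, unadjusted p = 0.00123, edgeR adjusted p = 0.436). DESeq2 called it (0.79, adjusted p = 0.0446), and over all alternatives the adjusted p ranged from 0.0446 to 0.898. In the annotation used for lengths, 63.1% of the exon bases of Folr2 overlap an antisense gene, Gm10602, which is not among the genes counted. Whether reads were counted by strand is not given in the sources used here. Colec12 measured 352, 323, 332, 342 and 426 CPM in tdT- CTL and 203, 159, 217, 215 and 365 CPM in tdT- BLZ945. Of the BLZ945 libraries, 4 lay below every CTL library, and the fifth, M2, lay among them. The log2 difference was -0.60 (SE 0.22, unadjusted p = 0.0159, edgeR adjusted p = 0.748).

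The third question was whether tdT+ sdCAMs, the marked descendants of Ccr2-using cells, differed from the tdT- sdCAMs of the same treatment. Cd163, Timd4 and Colec12 were lower in tdT+ cells, 3 of the 10 genes, whereas 0.191% of all genes tested were called lower. The members were chosen with earlier results of these data known, so this share is no independent evidence. The study had reported higher Cd163 RNA and higher Colec12 chromatin accessibility in embryo-derived sdCAMs. All 9 members tested had a negative log2 difference, with a median of -0.86 against -0.02 over all 13076 genes, and none was called higher. The remaining 6 tested members did not pass the test. The 3 calls held in each fit that left out 1 library of the groups compared, including tdT- BLZ945 F1 and tdT+ BLZ945 F3, and with the replicate block. Over all alternatives the adjusted p reached 0.0463 for Timd4 and 0.0269 for Colec12. The fibroblast markers moved the same way: all 6 had a negative log2 difference from tdT- BLZ945 (median -1.75) and none was called. Their summed level was 17.7 to 23.5 CPM in tdT+, 15.45 to 62.85 CPM in tdT- BLZ945 and 25.25 to 32.85 CPM in tdT- CTL libraries. The 5 dendritic cell markers, mostly Cd209a, summed to between 34.8 and 84.5 CPM in tdT+ libraries, within the range of tdT- BLZ945 and below every tdT- CTL library. The part of these markers in the differences was not tested.

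Timd4, the phosphatidylserine receptor by which resident macrophages tether dying cells, showed the largest difference of the called members. It measured 7.37, 8.31 and 24.9 CPM in the tdT+ libraries F2, F3 and M2. The tdT- BLZ945 libraries measured 196, 121, 111, 273.3 and 140 CPM and the tdT- CTL libraries 240, 169, 234, 186 and 220 CPM. Every tdT+ library was far below every tdT- library, and M2 was the highest of the tdT+ libraries. The log2 difference from tdT- BLZ945 was -3.65 (SE 0.43, 95% interval -4.57 to -2.73, edgeR adjusted p = 0.000893), a level 12.6-fold lower. Without tdT+ BLZ945 M2 it was -4.43 (edgeR adjusted p = 7.71e-05). In all 3 tdT+ libraries Timd4 lay above MG BLZ945.

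Colec12, a collectin-type scavenger receptor, measured 39.5, 32.6 and 64 CPM in the tdT+ libraries, against the 159 to 365 CPM of tdT- BLZ945. The groups were separate, and the log2 difference was -2.37 (SE 0.29, interval -2.98 to -1.76, edgeR adjusted p = 0.000893), a level 5.17-fold lower. Cd163 measured 322, 361 and 375 CPM in the tdT+ libraries and 1319, 814, 1397, 2011 and 1746 CPM in tdT- BLZ945. The tdT+ libraries agreed closely with each other and lay below the lowest tdT- library, F2. The log2 difference was -2.07 (SE 0.26, interval -2.62 to -1.51, edgeR adjusted p = 0.00117), a level 4.19-fold lower, and in a model of all 23 libraries, which takes its estimate of spread from MG as well, it was not called (edgeR adjusted p = 0.0871).

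Lyve1 stood between these 3 genes and the rest. It measured 1790, 1156 and 1656 CPM in tdT+ and 2141, 2669, 2725, 2839 and 3371 CPM in tdT- BLZ945 sdCAMs. The groups did not overlap, but the log2 difference of -0.86 (SE 0.20, interval -1.28 to -0.45, unadjusted p = 0.00046) did not pass the adjustment over all genes (edgeR adjusted p = 0.15). DESeq2 called it (adjusted p = 0.00765), and the adjusted p ranged from 0.00765 to 0.528 over all alternatives. For Folr2 the log2 difference was -0.47 (interval -0.95 to 0.01), for Msr1 -0.33 (-0.86 to 0.20), for F13a1 -0.30 (-0.76 to 0.17) and for Stab1 -0.14 (-0.55 to 0.26). These intervals leave room for moderate differences, and each excludes a fall as large as that of Cd163. Cd5l was decided by tdT- BLZ945 M2 (-2.69 with it, interval -7.68 to 2.31, and 3.72 without it).

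**Figure D3:**
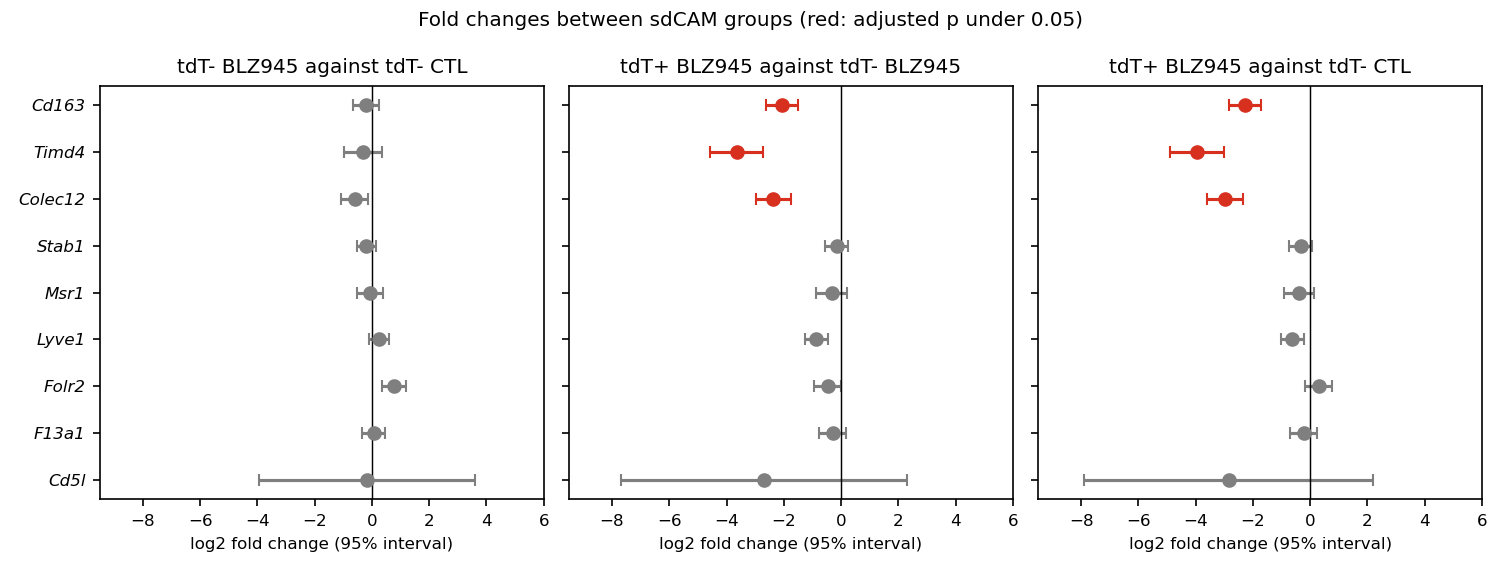
Log2 fold change (points) with 95% interval (bars) of the 9 tested members in the 3 comparisons between sdCAM groups. Red marks an adjusted p under 0.05: Cd163, Timd4 and Colec12 lie between -2.07 and -3.96 in both comparisons of tdT+ cells, and no member is red between tdT- BLZ945 and tdT- CTL.

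In 3 cases an animal or pool gave both a tdT+ and a tdT- library, which allowed the same differences to be read within an animal or pool. The tdT+ level of Timd4 was 6.08% of the tdT- level in F2, 7.46% in F3 and 17.8% in M2. For Colec12 it was 24.9%, 15.1% and 17.5%, and for Cd163 39.6%, 25.8% and 21.5%, in the same order. Lyve1 (67.1%, 42.4% and 49.1%), Folr2 (64.3%, 69.2% and 70.9%) and Stab1 (74.8%, 86.2% and 92%) were also below 100% in all 3. Msr1 and F13a1 were above 100% in F2 (106% and 114%) and below it in F3 and M2. An exact permutation test on 3 pairs cannot reach a p under 0.05, and none was run on these ratios.

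**Figure D4:**
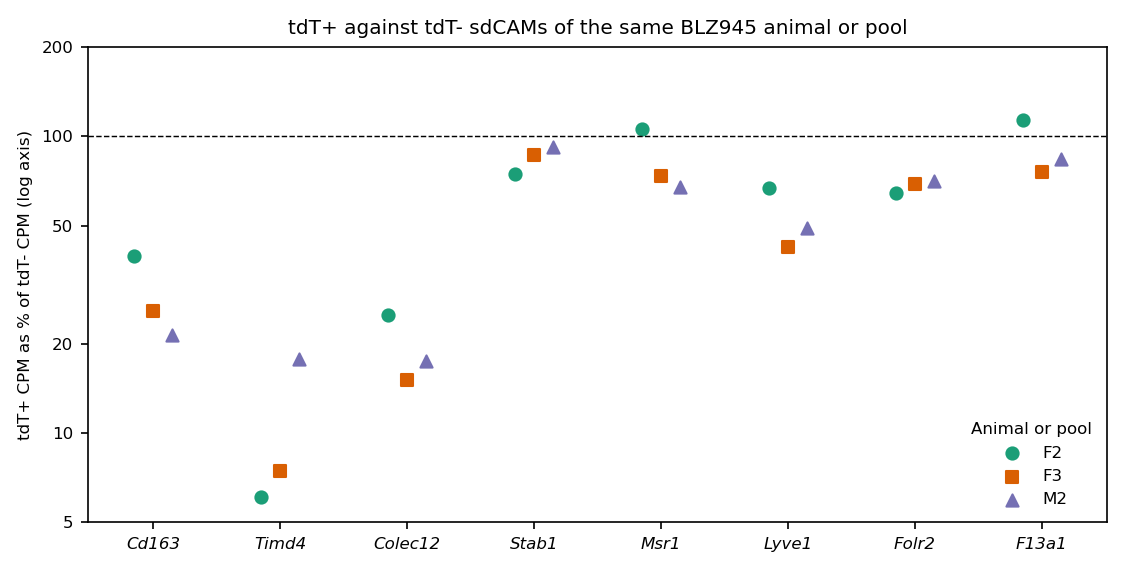
Level in tdT+ sdCAMs as a percentage of the level in tdT- sdCAMs of the same BLZ945 animal or pool (log axis), for 8 members; the dashed line marks 100%. Timd4 lies between 6.08% and 17.8%, Colec12 and Cd163 between 15.1% and 39.6%, and the other 5 genes between 42.4% and 114%.

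Against the tdT- sdCAMs of CTL mice, tdT+ cells had the same 3 genes called lower, against 0.214% of all genes tested. This comparison shares the tdT+ libraries with the one above, and is given beside it rather than as a repeat of it. The limit on the choice of members holds here too. The log2 difference was -3.96 for Timd4 (SE 0.44, edgeR adjusted p = 0.000464), -2.97 for Colec12 (SE 0.30, edgeR adjusted p = 0.000134) and -2.27 for Cd163 (SE 0.26, edgeR adjusted p = 0.000532). Without tdT+ BLZ945 M2 the difference of Timd4 was -4.75 (edgeR adjusted p = 2.88e-05). The groups did not overlap for these 3 genes, which were picked by their calls, so this adds no separate evidence. In the model of all 23 libraries Cd163 again fell short (edgeR adjusted p = 0.0523). Folr2 was the only member with a positive difference here (0.29, interval -0.18 to 0.76), and the median over the 9 members was -0.62 against -0.03 over all genes.

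Promoter sequences are shown for Cd163 and Timd4, members called in both comparisons of tdT+ cells. They come from RefSeq on build GRCm38.p6, cover 250 bases before and 50 bases from the annotated start on, and read 5′ to 3′ on the strand of the gene, with matches to the motifs searched in capitals. The motifs, searched on both strands, were the MAF half-site TGCTGAC, the PU.1 core GAGGAAG, the MEF2 core TAAAAATA and the E-box CACGTG. The Cd163 window is at chr6:124304401-124304700 on the plus strand, and the Timd4 window at chr11:46810549-46810848 on the plus strand.
Cd163: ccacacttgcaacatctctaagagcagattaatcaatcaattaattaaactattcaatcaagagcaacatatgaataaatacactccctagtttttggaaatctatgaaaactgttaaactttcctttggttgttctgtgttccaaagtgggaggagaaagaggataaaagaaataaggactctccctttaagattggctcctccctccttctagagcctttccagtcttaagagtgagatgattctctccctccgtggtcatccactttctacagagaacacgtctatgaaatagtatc
Timd4: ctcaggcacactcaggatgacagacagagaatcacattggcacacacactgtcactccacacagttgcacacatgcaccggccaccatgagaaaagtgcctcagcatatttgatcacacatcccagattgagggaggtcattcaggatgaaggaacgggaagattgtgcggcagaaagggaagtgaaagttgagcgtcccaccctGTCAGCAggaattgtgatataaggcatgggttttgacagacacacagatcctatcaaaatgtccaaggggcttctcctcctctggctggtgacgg

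The Timd4 window held the MAF half-site once, on the opposite strand, at position -45 from the start, a motif found in 4.67% of all 32851 promoter windows. The Cd163 window held none of the 4 motifs. Among the other members with a window, Marco, Cd5l and F13a1 held the PU.1 core (13.6% of all windows), 1 of the Folr2 windows held the MEF2 core (2.72%), Stab1 held none, and the E-box (7.15%) occurred in no member's window. A match is a description of letters, and no binding was measured.

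The fourth question was whether MG themselves differed between BLZ945 and CTL mice. Of the 10 genes, only Stab1, Msr1, Cd5l and F13a1 were high enough in MG to be tested, and none was called, whereas 0.408% of all 11264 genes tested were called in either direction and 0.249% higher. Counting an unadjusted p under 0.05, 1 of the 4 passed in edgeR, Cd5l (-1.12, SE 0.51, unadjusted p = 0.0414, edgeR adjusted p = 0.356), as did 1492 of the 11264 genes, and DESeq2 called none of the 10. Stab1 was 130 ± 15.9 CPM in CTL and 123 ± 21.7 CPM in BLZ945 mice (SD, n = 5 each), and the log2 difference lay within -0.36 to 0.18 (95% interval). For Msr1 the interval was -0.68 to 0.41. The test of whether BLZ945 changed a gene differently in tdT- sdCAMs and in MG could be read for the 4 members high enough in MG, and called none of them (0.0394% of all genes called, 0 members called in DESeq2). The differences were -0.12 for Stab1 (interval -0.58 to 0.34), 0.05 for Msr1 (-0.75 to 0.84), 0.81 for F13a1 (-0.52 to 2.14) and 0.91 for Cd5l (-2.79 to 4.61, but -5.48 without tdT- BLZ945 M2 and -2.84 with the replicate block), with no unadjusted p under 0.05 in edgeR. Cd163, Timd4, Folr2, Lyve1 and Colec12 passed the filter there only through sdCAMs. None of these 5 was called, although Cd163, Timd4 and Lyve1 had an unadjusted p under 0.05 (as had 1104 of all 12697 genes), and their values rest on few MG counts (2 counts of Timd4 in all of MG BLZ945).

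Neighbouring genes of the same pathways were read from 6 lists. Between tdT+ and tdT- BLZ945 sdCAMs, none of the other scavenger receptors (10 tested of 20), apoptotic cell receptors and their bridging proteins (10 of 13), folate transport genes (3 of 4), transglutaminases and clot genes (6 of 10), haemoglobin and haem genes (6 of 8) or hyaluronan genes (5 of 9) was called. Counting an unadjusted p under 0.05 in edgeR, these lists had 0, 3, 1, 0, 1 and 1 genes, in the same order, against 903 of all 13076 genes tested. Against tdT- CTL the lists held a single call, Slc40a1, the iron exporter ferroportin, with a mean of 128 CPM (SD 33, n = 3) among tdT+ libraries and 591 CPM (SD 127, n = 5) among tdT- CTL libraries, a log2 difference of -2.22 (SE 0.33, edgeR adjusted p = 0.0056). Its difference from tdT- BLZ945 sdCAMs was -1.58 (SE 0.32, edgeR adjusted p = 0.0726).

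Between tdT- sdCAMs and MG of CTL mice the same lists moved in both directions. Of all genes tested there, 15.3% were called higher and 10.3% lower. Of the other scavenger receptors 5 were called higher and 3 lower of 11 tested (median 0.34), of the apoptotic cell receptors and bridges 3 higher and 3 lower of 10 (median -0.20), and of the transglutaminases and clot genes 2 higher and 2 lower of 6 (median 0.12). Haem genes were called higher in 5 and lower in 1 of 6 (median 1.69), hyaluronan genes higher in 2 of 5 (median 0.70), and folate genes lower in 2 of 3 (median -0.68), with a median of -0.007 over all genes. Among called genes with an average log2 CPM of at least 3, Mrc1 (7.85, SE 0.44), Thbd, the anticoagulant thrombomodulin (7.07, SE 0.80), Cd36, a class B scavenger receptor (4.92, SE 0.49), and Scarf1 (4.73, SE 0.94) had the largest log2 differences. Mrc1, counted among the 5 scavenger receptors called higher, encodes CD206, on which the cells were sorted, so its difference was set by the sort. Leaving out 1 MG CTL library moved 3 of these, Mrc1 to 8.61 (without F3), Thbd to 8.21 (without M2) and Scarf1 to 6.005 (without F2). In BLZ945 mice, 5 scavenger receptors were higher and 3 lower of 11 tested in tdT- sdCAMs (18.3% and 14.1% of all genes). In tdT+ sdCAMs 4 were higher and 3 lower of 12 tested (14.6% and 10.6% of all genes). Hmox1, the haem-degrading enzyme, was 1052 ± 689 CPM in tdT- BLZ945 sdCAMs and 111 ± 80.2 CPM in MG BLZ945 (SD, n = 5 each; log2 difference 3.25, SE 0.52, edgeR adjusted p = 4.87e-05), and Tgm2, a tissue transglutaminase, was lower in tdT+ sdCAMs than in MG BLZ945 (-3.14, SE 0.62, edgeR adjusted p = 0.00054). In MG, BLZ945 went with higher Cd36 (23 ± 16.2 CPM in CTL and 121 ± 67.6 CPM in BLZ945, adjusted p = 0.0497), Axl (15.9 ± 13.7 and 75.5 ± 14.4 CPM, adjusted p = 0.01) and Cd300lf (20.8 ± 6.33 and 70.9 ± 21 CPM, adjusted p = 0.00217; SD, n = 5 for each group, edgeR). The call of Cd36 was lost when any of 8 of the 10 MG libraries was left out (log2 difference 2.11 to 2.56 in place of 2.38, adjusted p up to 0.132 in edgeR). That of Cd300lf was lost in the model of all 23 libraries, with the difference at 1.77 in place of 1.76 and an SE of 0.47 in place of 0.23 (adjusted p = 0.279). The log2 difference of Axl was 2.24, and 2.92 without MG CTL F3. The blood monocyte markers were also higher in sum in MG BLZ945 (39.8 to 94.8 CPM, against 10.1 to 32.7 CPM in MG CTL, without overlap), and their part in these differences was not tested. The largest part of that sum was Fn1, which encodes fibronectin (11.3 ± 7.24 and 56.7 ± 18.1 CPM in CTL and BLZ945), whereas the means of Ccr2 (5.97 ± 3.15 and 4.02 ± 1.6 CPM) and Plac8 (3.995 ± 1.23 and 0.962 ± 1.05 CPM) were lower in BLZ945, and Ly6c2 was near 0 in MG. Axl and Cd300lf were the calls among the 8 genes tested there from the list of apoptotic cell receptors and bridges. Of all genes tested, 0.249% were called higher.

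Among the 13 sdCAM libraries, Cd163, Timd4 and Colec12 varied together, with Pearson's r of log2(CPM + 1) of 0.946 for Cd163 and Timd4, 0.939 for Cd163 and Colec12, and 0.948 for Timd4 and Colec12. Most of this came from the difference between tdT+ and tdT- libraries: within the 10 tdT- libraries the same values were 0.618, 0.563 and 0.38. F13a1 varied with Msr1, at 0.826 over 13 and 0.799 over 10 libraries, and within the 10 tdT- libraries also with Cd163 (0.778). Stab1 went opposite to F13a1 within the tdT- libraries (-0.644). These correlations are descriptions, since libraries of the same animal or pool and of the same group are not independent.

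**Figure D5:**
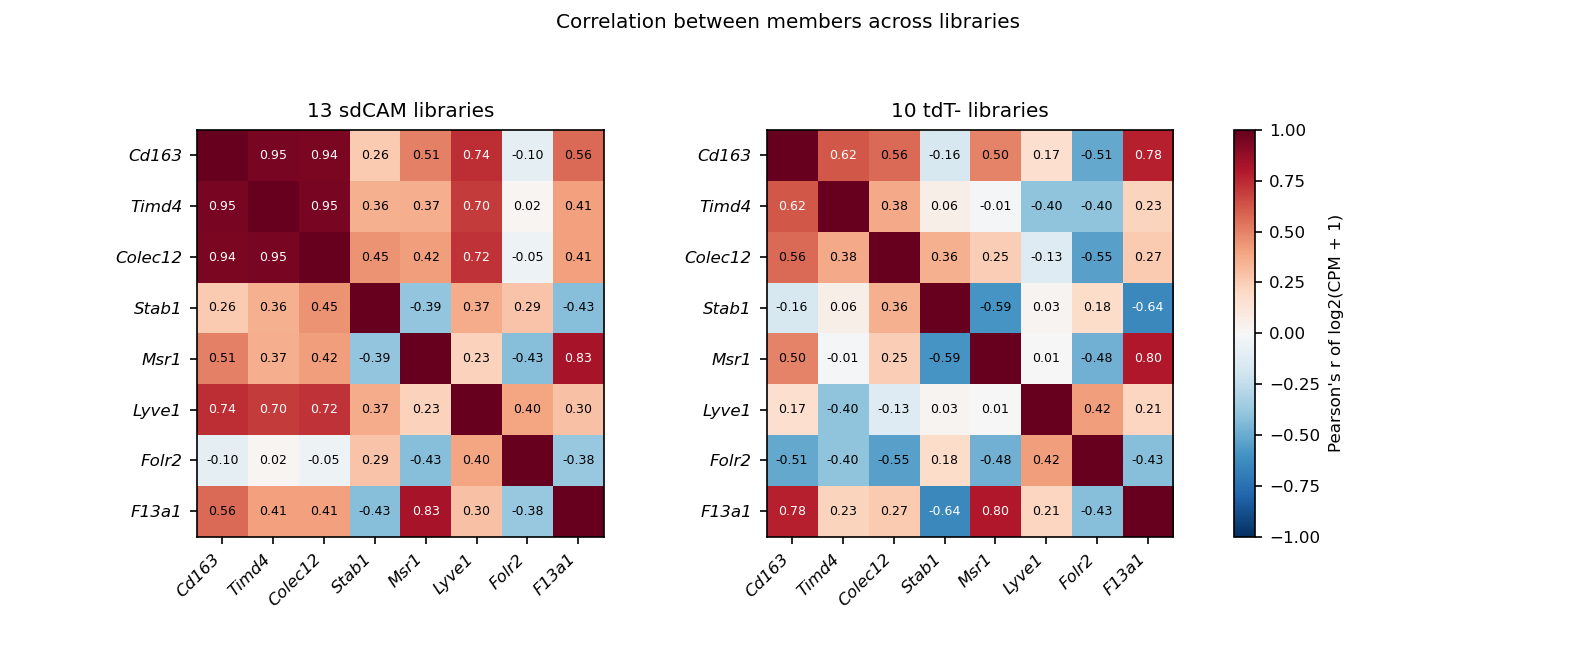
Pearson's r of log2(CPM + 1) between 8 members over the 13 sdCAM libraries (left) and over the 10 tdT- libraries (right); red is positive and blue negative. Cd163, Timd4 and Colec12 form a block at 0.939 to 0.948 on the left that weakens to 0.38 to 0.618 on the right, while Msr1 and F13a1 stay at 0.826 and 0.799.

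By the same measure, searched over 5029 well-expressed genes, the pattern of Colec12 was most like that of Cd4 (0.982), Cd209b (0.956) and Gimap6 (0.95). Timd4 was most like Cd55 (0.973), Cd209b (0.954) and P2rx7 (0.953), and Cd163 was most like Cd55 (0.964). Cd209b belongs to a family of similar genes whose reads may be split between copies. The highest values for the other members were 0.929 for Msr1 with Nop2, 0.933 for F13a1 with G3bp2, 0.886 for Folr2 with Commd2, 0.884 for Stab1 with Arhgef2 and 0.866 for Lyve1 with Naa35.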

How the data were processed

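RNA was sequenced from 23 libraries of sorted macrophages. The table that the authors deposited held raw counts, whole numbers for each gene symbol. By the labels they used bcl2fastq 2.20, STAR 2.7.11a and featureCounts 2.0.6 (the study's methods name another featureCounts version and do not settle the genome build of this table), so gene positions are not printed from it. Handling of multi-mapping reads and strand is not given in the sources used here. Exon lengths came from another annotation (GENCODE, GRCm38) and served only for CPM per kb.

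The tests used edgeR 4.0.16 under R 4.3.3 (TMM factors, filterByExpr, glmQLFit and glmQLFTest, Benjamini-Hochberg over all genes tested, calls at an adjusted p under 0.05). sdCAM groups were compared in a model of 13 libraries, MG in one of 10, tdT- sdCAMs with MG in one of 20, and tdT+ sdCAMs with MG in one of 23. CPM used library totals times TMM factors, and 95% intervals used the test's degrees of freedom. DESeq2 1.42.0, other scalings and filters, other models, a replicate block and leaving out each library were alternatives. The scripts were tested on simulated data.

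Within a treatment, libraries with the same label come from the same animal or pool, per the labels, which pairs them. The correlation of their deviations from the group means was 0.0287 to 0.183. Between libraries of BLZ945 and CTL mice that share only the label it was -0.0803 to 0.186. No 2 libraries were duplicates, as the chi-square per gene was at least 15.8 for any pair within a group. P-values measure the spread between these libraries. The exact intervals of ratios of counts and the floors of 3 counts cover counting error only, as reads amplified by PCR are not independent molecules.

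Members, lists and tests were chosen with earlier results of these data known. All 10 members are described. Genes of the 6 neighbouring lists are named only if called and with an average log2 CPM of at least 3, at most 4 per comparison, by size of the difference, and their alternatives were added after the data were seen. The 3 most alike genes were sought among genes with an average log2 CPM of at least 5. Promoter windows were matched for 7 of the 10 members. Colec12, Lyve1 and Msr1 had no entry. The nearest patterns to that of Cd163 are given in part, because 1 result is not reported here.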

Additional observations from a re-analysis of the deposited data

Results flagged for a closer look

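In 37 sets of 5 libraries, 8 had a library further from the others than Dixon's 95% limit allows, where chance flags about 1 in 20 sets. In sdCAMs these were Colec12 in tdT- CTL F3 (426 CPM, highest of its group), Colec12 in tdT- BLZ945 M2 (365 CPM, highest), Cd5l in tdT- BLZ945 M2 (15 CPM, highest) and F13a1 in tdT- BLZ945 F2 (1927 CPM, lowest). In MG they were Msr1 in MG CTL M2 (530 CPM, highest), Lyve1 in MG CTL M1 (3.5 CPM, highest) and in MG BLZ945 M2 (1.61 CPM, highest), and Colec12 in MG BLZ945 F1 (0.903 CPM, highest). Lyve1 and Colec12 rest on 41, 19 and 9 counts in the MG libraries named.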

How the results depend on the processing

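The counts of members called were within 1.5 times of those given under all alternatives but DESeq2 for tdT- BLZ945 against tdT- CTL, where 1 member (Folr2) was called and not 0. Calls by gene changed in few cases. Cd163 was lost in the model of all 23 libraries in both comparisons of tdT+ with tdT- sdCAMs (-2.05 and -2.27, adjusted p = 0.0871 and 0.0523), DESeq2 added Lyve1 for tdT+ against tdT- BLZ945 (-0.85), and Cd5l against MG was gained as given above. Of the genes named from the neighbouring lists, whose alternatives were added after seeing the data, Cd36 and Cd300lf in MG lost their calls, as given above, Cd36 also with library totals alone (adjusted p = 0.056). The cause was not tested.

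With the replicate block, the BLZ945 effect on Cd5l in tdT- sdCAMs minus that in MG turned from 0.91 to -2.84, and besides the calls of Cd5l against MG (-5.01 and -7.67) the block changed no call of a member. For tdT+ against tdT- BLZ945 the count over all genes was 6 with the block and 27 without it, 187 in DESeq2 and 82 in the model of all 23 libraries, and 3 members were called with the block. For tdT+ against tdT- CTL it was 227 in DESeq2 and 121 in that model, against 37. With library totals alone, F13a1 in tdT- BLZ945 against tdT- CTL went from 0.06 to -0.00197, and the median of all genes for sdCAMs against MG shifted to between -0.13 and -0.17.

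Directions turned when 1 library was left out only for members that were not called. In tdT- BLZ945 against tdT- CTL the ranges were -0.213 to 0.0504 for Msr1, -6.58 to 0.157 for Cd5l and -0.00288 to 0.203 for F13a1. For tdT+ against tdT- BLZ945 the range of Cd5l was -8.04 to 3.72, and for MG that of Msr1 was -0.248 to 0.179. For the BLZ945 effect in tdT- sdCAMs minus that in MG, the ranges were -0.232 to 0.0155 for Stab1, -1.45 to 3.66 for Colec12, -0.259 to 0.186 for Msr1 and -5.48 to 1.24 for Cd5l.

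Depth limits Marco in sdCAMs, Cd5l, and Cd163, Timd4, Folr2, Lyve1 and Colec12 in MG, where fold changes rest on few counts. F13a1 had 324 counts in MG CTL and 189 in MG BLZ945.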
